A study of Macaca mulatta with 10 samples.

Results

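The genes described here are 10 members of the PDPK1, TSC complex and mTOR signalling route, out of 18622 gene symbols measured in lymph nodes of rhesus macaques. They were taken by symbol: PDPK1, TBC1D7, TSC1, TSC2, RHEB, AKT1, AKT2, FRAP1 (the older symbol of MTOR), RPS6KB1 and EIF4EBP1. All 10 symbols had a row. PDPK1 and TBC1D7 came into the set because they were among the genes with the smallest p for unstable against stable animals in the same arrays, and the others because they act in the same route. The difference between the groups is therefore given for the members as a description, with its standard error (SE) and no test.

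The animals were 10 males, of which 5 lived in stable social conditions and 5 in unstable ones, and each gave 1 lymph node sample and 1 array. The social condition was the only treatment in the labels, and no genotype or other agent was given. Age labels carry no unit and ran from 5.73 to 5.87 in the stable group, from 6.7 to 6.84 in unstable animals 1 to 3, and were 5.62 and 5.61 in unstable animals 4 and 5. Stable animals 1 to 4 lay on slide 2, stable animal 5 and unstable animals 1 to 3 on slide 1, and unstable animals 4 and 5 on slide 3. The question of the series is whether expression in the node differs with social condition.

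The route links growth factor signals to protein synthesis and cell growth. PDPK1 phosphorylates AKT kinases at the membrane, AKT restrains the TSC complex of TSC1, TSC2 and TBC1D7, and that complex switches off the small GTPase RHEB, which otherwise activates the mTOR kinase in mTOR complex 1. The complex then phosphorylates S6 kinase, encoded by RPS6KB1, and the translation repressor encoded by EIF4EBP1. In lymphocytes the route is known for its part in activation and growth. Most of its control is by phosphorylation and nutrient sensing, which an mRNA array does not measure.

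Values are log2 expression values from the authors' gene table. A background limit was set on each array at the mode of its values plus 3 times the SD of the values under that mode, and lay at 6.85 on all 10 arrays; a gene over it is called above background. Correlations between arrays lay between 0.972 and 0.990 for the 8940 genes that passed this limit on at least 3 arrays, and the number of arrays limits the precision. In the node, 7 of 8 T cell markers, 4 of 7 B cell markers and 5 of 5 stromal markers were above background on all 10 arrays. The B cell markers MS4A1, PAX5 and BLK were above it on no array, as were 6 of 7 markers of epithelium and muscle. In whole nodes, fewer cells of a type and less RNA per cell cannot be told apart.

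Of the 10 members, 6 were above background on all arrays: PDPK1, TBC1D7, TSC1, RHEB, AKT1 and RPS6KB1. FRAP1 was above it on 3 arrays, EIF4EBP1 on 1, and TSC2 and AKT2 on no array, so that the values of these 4 genes are mostly near the array's background. PDPK1 and TBC1D7 were higher in every unstable animal than in any stable animal. The other 8 members overlapped between the groups, with 2 of them higher and 6 lower on average in unstable animals. The median difference over the 10 members was -0.03 log2 units, against -0.002 over all genes.

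PDPK1, the kinase that activates AKT, S6 kinase and other kinases of the same family, stood at 8.34, 8.39, 8.28, 8.30 and 8.30 in stable animals 1 to 5. In unstable animals 1 to 5 it stood at 8.44, 8.54, 8.45, 8.50 and 8.44. The lowest unstable animal lay 0.046 log2 units above the highest stable animal, stable animal 2, so the groups were separate by a narrow margin. The means were 8.32 ± 0.045 (SD, n = 5) and 8.47 ± 0.044 (SD, n = 5), a difference of 0.15 (SE 0.033), or 1.11-fold. A difference of that size is not rare on these arrays: 6.74% of all genes differed by as much in either direction. The SD of PDPK1 within groups, 0.044, was smaller than that of 99.8% of the genes closest to it in mean level, whose median SD was 0.151. Small spread is part of what gave PDPK1 a small p, so it too describes how the gene was chosen. PDPK1 has a near-identical copy in the human genome, for which the probes were designed, and whether they also read such a copy in macaque was not tested.

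TBC1D7, the subunit that binds TSC1 and stabilises the TSC complex, stood at 8.42, 8.51, 8.46, 8.41 and 8.39 in stable animals 1 to 5. In unstable animals 1 to 5 it stood at 8.75, 8.64, 8.52, 8.66 and 8.71. Unstable animal 3 came within 0.012 log2 units of stable animal 2, while the other 4 unstable animals lay further above the stable ones. The means were 8.44 ± 0.047 (SD, n = 5) and 8.66 ± 0.089 (SD, n = 5), a difference of 0.22 (SE 0.045), or 1.16-fold, and 2.90% of all genes differed by as much in either direction. The gene equalled 1 probe of the deposited intensity table. The intensity of that probe before normalization was 356 to 379 in stable and 396 to 548 in unstable animals. These values come from the arrays that chose the gene, so they are a description and no further support. They also carry the brightness of each array, whose median intensity was 106 to 114 in stable and 104 to 119 in unstable animals. On probe values the difference was 0.23 with quantile normalization alone. It was 0.28 with normexp background correction and quantile normalization, and 0.33 with normexp and median scaling.

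Members with separate groups and higher values in unstable animals thus numbered 2 of 10, both chosen for this contrast, while 0.322% of all genes had separate groups in that direction. Separate groups with lower values in unstable animals were seen for 0 members and for 0.516% of all genes. By limma with Benjamini-Hochberg adjustment, 0 of 18622 genes passed an adjusted p of 0.05 in either direction, or 0% each way. At an unadjusted p under 0.05 there were 448 genes higher and 508 lower, or 2.41% and 2.73%.

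**Figure D1:**
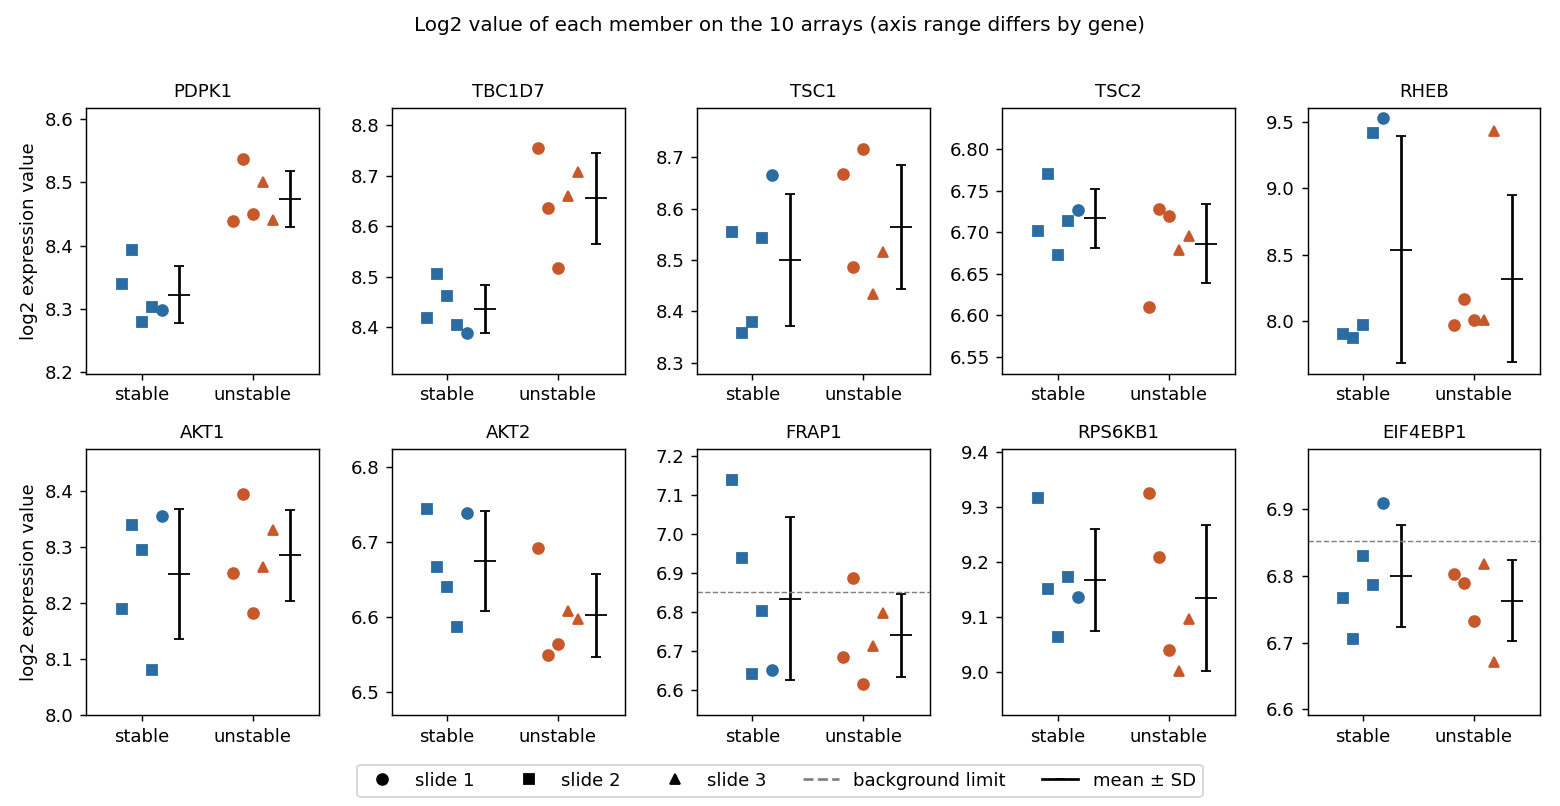
Log2 expression value of each member (vertical axis, range differs by gene) in the 5 stable (blue) and 5 unstable (orange) animals, with the slide as symbol, the mean ± SD as bars and the background limit as a dashed line where it falls in range. PDPK1 and TBC1D7 are the only members whose groups do not overlap, and RHEB has 3 arrays far above the other 7.

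Slide and group were confounded except on slide 1, which held 1 stable and 3 unstable animals. There PDPK1 was 8.30 in the stable animal and 8.44 to 8.54 in the unstable ones, a difference of 0.177. TBC1D7 was 8.39 against 8.52 to 8.75, a difference of 0.249. The 2 unstable animals on slide 3, whose age labels were like those of the stable group, stood at 8.44 and 8.50 for PDPK1 and at 8.66 and 8.71 for TBC1D7. Against the 5 stable animals those 2 gave differences of 0.148 and 0.248. Since the groups of both genes do not overlap, any subset of the animals has to give the same direction. The sizes come from the arrays that chose the genes, so they too are a description and no further support. Within slide 1, social condition cannot be told apart from age label. For the slide 3 animals it cannot be told apart from slide, or from their slightly lower age labels. Leaving out any 1 animal gave differences of 0.135 to 0.168 for PDPK1 and 0.195 to 0.254 for TBC1D7.

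Among the marker lists for cells that a node could hold, 0 of 10 had list means that separated the groups. Markers of dividing cells had higher means in unstable animals for 12 of 14 genes, against 48.9% of all genes. Their list means were 7.38 to 7.55 in stable and 7.36 to 7.96 in unstable animals. MKI67, CCNB1 and RRM2 were above background on no array. Unstable animals 3 to 5 had list means of 7.77, 7.68 and 7.96, above every stable animal, and unstable animals 1 and 2 had 7.48 and 7.36, within and below the stable range. The part of these markers in the values of PDPK1 and TBC1D7 was not tested. All 6 measured erythroid markers were lower in unstable animals, with list means of 8.39 to 8.81 against 8.11 to 8.55. All 7 markers of macrophages and dendritic cells were lower as well, at 8.60 to 9.31 against 8.66 to 9.10. Neutrophil markers were higher for 3 and lower for 5 of 8 genes, not far from the share over all genes. Their list means were 7.08 to 7.78 in stable and 6.99 to 7.15 in unstable animals. The highest of these means were 7.78 and 7.54, in stable animals 2 and 3. SLC4A1 of the erythroid list, LYZ of the macrophage list and S100A12, IL8RB and ELA2 of the neutrophil list were above background on no array. Lower means were also found for 6 of 7 B cell, 5 of 6 plasma cell, 6 of 7 epithelium and muscle and 3 of 5 stromal markers. T cell markers were lower for 4 of 8 genes and fat cell markers for 3 of 8. The part of these other lists in the values of PDPK1 and TBC1D7 was not tested either.

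**Figure D2:**
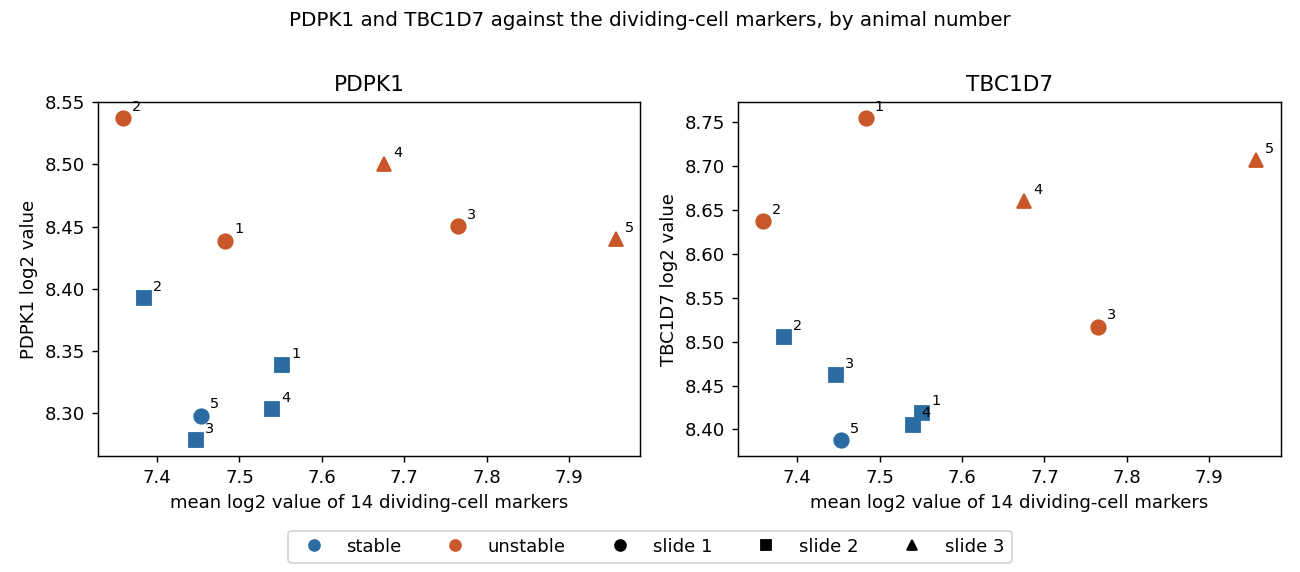
PDPK1 and TBC1D7 log2 values (vertical axes) against the mean log2 value of 14 dividing-cell markers (horizontal axis), 1 point per animal with its number, stable in blue and unstable in orange, and the slide as symbol. The dividing-cell means are 7.77, 7.68 and 7.96 in unstable animals 3 to 5, 7.48 and 7.36 in unstable animals 1 and 2, and 7.38 to 7.55 in the stable animals.

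The partners of TBC1D7 did not separate the groups. TSC1, the scaffold of the complex, ranged from 8.36 to 8.66 in stable and from 8.43 to 8.72 in unstable animals, with means of 8.50 ± 0.13 (SD, n = 5) and 8.56 ± 0.12 (SD, n = 5). The difference of 0.064 (SE 0.073) was smaller than the spread within either group, on slide 1 alone it was -0.041, and with 1 animal left out it ran from 0.026 to 0.105. TSC2, which carries the GTPase-activating domain of the complex, ranged from 6.67 to 6.77 and from 6.61 to 6.73. Its difference of -0.031 (SE 0.032) was between values not above background, and was -0.011 without unstable animal 1 and -0.017 without stable animal 2.

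RHEB, the GTPase that the complex switches off, had values in 2 levels on these arrays. It stood at 7.90, 7.88, 7.97, 9.42 and 9.53 in stable animals 1 to 5 and at 7.97, 8.17, 8.01, 8.01 and 9.43 in unstable animals 1 to 5. Stable animals 4 and 5 and unstable animal 5 were high, the other 7 animals lay between 7.88 and 8.17, and no array fell in the gap of 1.25 log2 units between them. The high arrays lay on slides 2, 1 and 3, so each slide held 1 of them, and 2 came from the stable and 1 from the unstable group. The group means of 8.54 ± 0.85 (SD, n = 5) and 8.32 ± 0.63 (SD, n = 5) average 2 high and 3 low arrays in the stable group and 1 high and 4 low arrays in the unstable group. The difference of -0.22 (SE 0.41) was smaller than its error. It was -1.48 on slide 1, where the only stable animal was a high one, 0.185 without the older unstable animals, -0.50 without unstable animal 5, 0.028 without stable animal 5 and 0.0009 without stable animal 4.

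The RHEB row equalled 1 probe, and the 2 levels were present in its intensities before normalization. They were 717 and 840 in stable animals 4 and 5 and 672 in unstable animal 5, against 228 to 339 on the other 7 arrays. Only 0.699% of genes of like mean level had a larger SD within groups. Among all genes, 12 others had a gap at least as wide with 2 or more arrays on each side, and 0 of those 12 had the same 3 arrays on the high side.

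**Figure D3:**
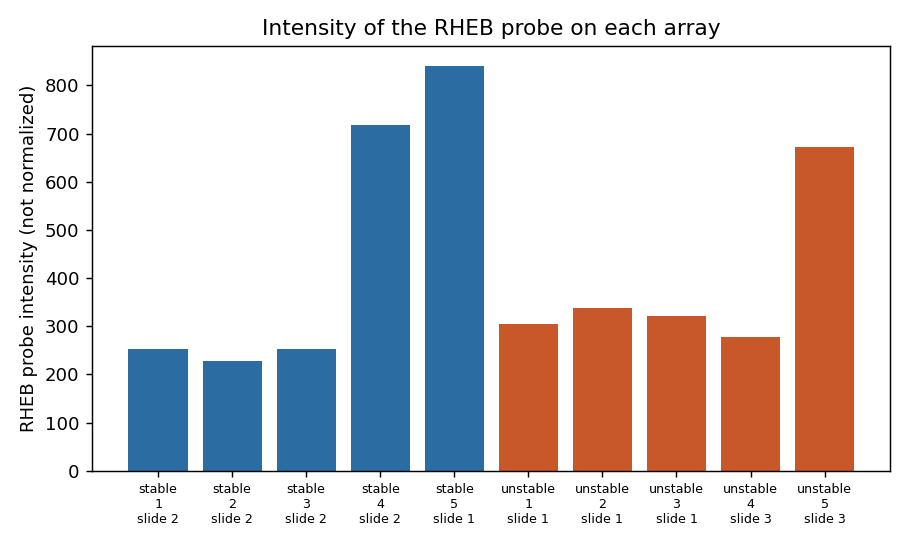
Intensity of the RHEB probe before normalization (vertical axis, from 0) on each of the 10 arrays, stable in blue and unstable in orange. Bars of stable animals 4 and 5 and unstable animal 5 reach 672 to 840, and the other 7 stay between 228 and 339.

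AKT1, the AKT kinase expressed in most tissues, ranged from 8.08 to 8.35 in stable and from 8.18 to 8.39 in unstable animals. Its means of 8.25 ± 0.12 (SD, n = 5) and 8.28 ± 0.080 (SD, n = 5) differed by 0.033 (SE 0.059), less than the spread within groups, and by -0.079 on slide 1. Without stable animal 4 the AKT1 difference was -0.0097, and with any other animal left out it was up to 0.059. AKT2, known for its role in insulin-driven glucose uptake, ranged from 6.59 to 6.74 and from 6.55 to 6.69. Its difference was -0.073 (SE 0.041), between values not above background, and -0.24 with normexp correction and quantile normalization.

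FRAP1, which encodes the mTOR kinase, stood at 7.14, 6.94, 6.64, 6.80 and 6.65 in stable animals 1 to 5 and at 6.69, 6.89, 6.61, 6.71 and 6.80 in unstable animals 1 to 5. Only stable animals 1 and 2 and unstable animal 2 were above background. The difference of -0.094 (SE 0.094) rested largely on stable animal 1, without which it was -0.019, and on slide 1 it was 0.078. RPS6KB1, the S6 kinase that promotes ribosome and protein production, ranged from 9.06 to 9.32 in stable and from 9.002 to 9.32 in unstable animals, and the means differed by -0.034 (SE 0.067). The RPS6KB1 difference was 0.055 on slide 1, 0.0034 without stable animal 1 and -0.081 without unstable animal 1. EIF4EBP1, which holds back the cap-binding factor eIF4E until mTOR phosphorylates it, ranged from 6.71 to 6.91 and from 6.67 to 6.82. Its difference was -0.037 (SE 0.044), and stable animal 5 was the single array above background. It was -0.0096 without stable animal 5, -0.014 without unstable animal 5, -0.061 without stable animal 2 and -0.135 on slide 1.

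**Figure D4:**
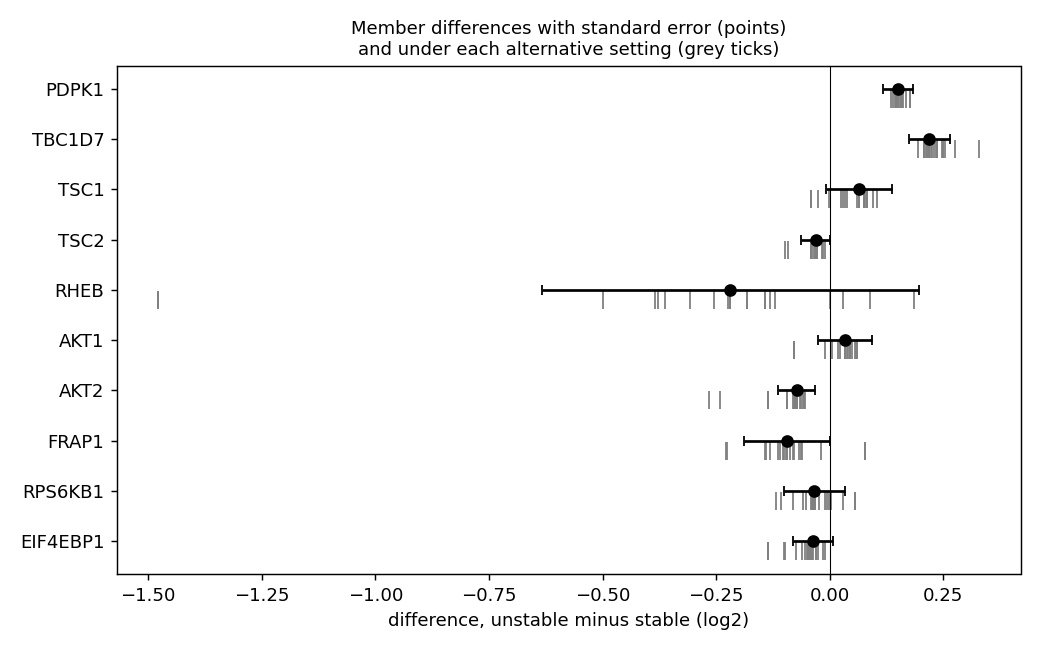
Difference between unstable and stable animals (horizontal axis, log2 units) for each member, as points with the standard error, and under each alternative setting as grey ticks. The ticks of RHEB run from -1.48 to 0.185. Those of PDPK1 and TBC1D7 start at 0.135 and 0.195, and under subsets of the animals their sign is fixed by groups that do not overlap. PDPK1, TSC1 and AKT1 have no ticks from another normalization.

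Whether members vary together from animal to animal, apart from the group difference, was examined on values centred on each group mean. The 11 pairs were known kinase and substrate, complex or regulator pairs, plus PDPK1 and TBC1D7. Those were paired because both led the contrast, not as known partners. Pearson's r and Spearman's rho over 10 animals were tested by exact two-sided permutation within groups, with Benjamini-Hochberg adjustment over the 11 pairs. In all, 0 of 11 pairs passed, with 0 at an unadjusted p under 0.05 and a smallest adjusted p of 0.704 for Pearson's r and 0.656 for Spearman's rho. PDPK1 and TBC1D7, though both higher in every unstable animal, had an r of 0.086 (exact permutation p = 0.825, adjusted 0.825) and a rho of -0.14 (exact permutation p = 0.718, adjusted 0.724). Their r was -0.19 without the 2 animals farthest from the PDPK1 median and 0.045 when centred on group and slide together. The spread of PDPK1 within groups, on which r rests, was small (SD 0.044) and part of how the gene was chosen. A low r for its pairs is therefore a description and does not show that the genes vary independently.

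TBC1D7 and TSC1, which bind each other, had an r of -0.50 (exact permutation p = 0.163, adjusted 0.704) and a rho of -0.52 (exact permutation p = 0.147, adjusted 0.656). Without the 2 animals farthest from the TBC1D7 median r was -0.75, and centred on group and slide it was -0.36. FRAP1 and RPS6KB1, kinase and substrate, had the highest r of the 11 pairs at 0.55 (exact permutation p = 0.0785, adjusted 0.704), with a rho of 0.45 (exact permutation p = 0.179, adjusted 0.656). It fell to 0.19 without the 2 animals farthest from the FRAP1 median and was 0.68 when centred on group and slide. FRAP1 and EIF4EBP1 had an r of -0.51 (exact permutation p = 0.192, adjusted 0.704) and a rho of -0.56 (exact permutation p = 0.134, adjusted 0.656). Their r was -0.75 without the 2 farthest animals and -0.33 centred on group and slide. The other 7 pairs had r between -0.42 and 0.35. FRAP1, EIF4EBP1, TSC2 and AKT2 were mostly near background. That limits what r can show for any pair holding one of them, FRAP1 and RPS6KB1 included.

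Among the 6779 other genes above background on all arrays, those whose group-centred values followed PDPK1 most closely over the 10 arrays were RAB10 (r = 0.95), TNFRSF13B (0.94), KIAA0152 (0.92), NPTN (0.90) and RTN4 (0.90). For TBC1D7 they were C16orf5 (r = 0.91), CYB5R4 (0.89), PLAC8 (0.87), CXorf38 (0.86) and TRIM49 (0.85). No other member was in either list. With 10 arrays and this many genes, high values of r at the top of such a ranking are usual, and they are given as a description.

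The wider route was covered by 8 lists of genes outside the members, of which 120 of 132 were measured and 89 were above background on 3 or more arrays. Of the 120 genes, 47 had higher and 73 lower means in unstable animals, or 39.2% higher against 48.9% of all genes. By limma, 0 passed after Benjamini-Hochberg adjustment over all genes (smallest adjusted p = 0.918), and 0 had groups that did not overlap, against 0.322% higher and 0.516% lower of all genes. At an unadjusted p under 0.05 there was 1 of 120 higher and there were 2 lower, against 2.41% and 2.73% of all genes.

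The input side holds receptors, insulin receptor substrates and PI3-kinase, which makes the lipid that recruits PDPK1 and AKT. Of 20 measured genes, 8 were higher and 12 lower, none past the adjusted threshold and none at an unadjusted p under 0.05 in limma, with a median difference of -0.005. PIK3AP1, an adaptor that couples B cell receptors to PI3-kinase, differed by -0.44 (SE 0.20). IRS2, an insulin receptor substrate, differed by 0.16 (SE 0.072), and its relative IRS1 by 0.073 (SE 0.036). PIK3AP1 differed by -0.28 and IRS2 by 0.064 on slide 1, and PIK3AP1 by -0.68 without the older unstable animals.

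Further kinases that PDPK1 activates, in a list that also held the upstream kinase STK11, had 4 of 14 genes higher and 10 lower, with a median of -0.025. RPS6KB2, the second S6 kinase gene, differed by -0.092 (SE 0.042), PRKCQ, the protein kinase C of T cell receptor signalling, by 0.080 (SE 0.044), and RPS6KA1, an S6 kinase of the MAP kinase route, by -0.13 (SE 0.081). PRKCQ was above background on no array, and RPS6KA1 differed by 0.027 on slide 1, in the opposite direction, and by -0.052 without stable animal 4. Targets of AKT had 4 of 10 genes higher and 6 lower, with a median of -0.012. FOXO3A, the older symbol of the transcription factor FOXO3, differed by -0.094 (SE 0.057), MLLT7, the older symbol of FOXO4, by -0.14 (SE 0.11), and AKT1S1, an inhibitor within mTOR complex 1, by -0.042 (SE 0.027) between values not above background. FOXO3A was at -0.050 without unstable animal 4, and MLLT7 at -0.067 without unstable animal 5 and -0.075 without stable animal 3. In both lists 0 genes passed limma's adjusted threshold and 0 had an unadjusted p under 0.05.

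Subunits and assembly factors of the mTOR complexes had 1 of 8 measured genes higher and 7 lower, with a median of -0.038, and 0 passed the adjusted threshold. C8orf41, the older symbol of TTI2, which helps assemble mTOR and related kinases, had the smallest p of the wider route. It stood at 8.50, 8.78, 8.11, 8.76 and 8.56 in stable animals 1 to 5 and at 8.04, 8.06, 8.34, 8.06 and 8.09 in unstable animals 1 to 5. Stable animal 3 lay among the unstable animals, and the groups overlapped by way of that animal and unstable animal 3. The difference was -0.42 (SE 0.12, limma unadjusted p = 0.0048, adjusted p = 0.918), and -0.41 on slide 1. GBL, the older symbol of the mTOR partner MLST8, differed by -0.069 (SE 0.035), and FLJ14213, the older symbol of the mTOR complex 2 partner PRR5L, by -0.050 (SE 0.033) between values not above background and by -0.030 without unstable animal 5.

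The branch that senses amino acids at the lysosome had 10 of 21 measured genes higher and 11 lower, with a median of -0.004. RRAGC, a Rag GTPase that brings mTOR complex 1 to the lysosome, differed by -0.13 (SE 0.055, limma unadjusted p = 0.0447, adjusted p = 0.942). It differed by -0.21 on slide 1 and by -0.073 with normexp and median scaling. KPTN differed by 0.11 (SE 0.055), above background on 1 array, and SLC3A2, the heavy chain of an amino acid transporter, by -0.12 (SE 0.069). Without 1 animal they were at 0.063 (unstable animal 5) and -0.068 (stable animal 2). Energy and stress inputs to the TSC complex had 5 of 13 higher and 8 lower, with a median of -0.012. DDIT4L, a relative of the stress-induced mTOR inhibitor DDIT4, differed by 0.19 (SE 0.084, limma unadjusted p = 0.0476, adjusted p = 0.942). It differed by 0.12 without unstable animal 4, its highest array, and by 0.42 with normexp and median scaling. LYK5, the older symbol of STRADA, a partner of the kinase LKB1, differed by -0.096 (SE 0.050), and PRKAG1, a subunit of the energy sensor AMPK, by -0.069 (SE 0.038), or -0.041 without stable animal 4.

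Translation factors downstream of mTOR complex 1 had 6 of 15 genes higher and 9 lower, with a median of -0.014. LARP1, a binder of mRNAs for ribosomal proteins, differed by -0.085 (SE 0.051), EIF4G1, the scaffold of the cap-binding complex, by -0.12 (SE 0.075), and EIF4A1, its helicase, by -0.096 (SE 0.072). Without stable animal 2 alone these were -0.047, -0.069 and -0.048, and without unstable animal 4 EIF4G1 was at -0.079 and EIF4A1 at -0.057. Other outputs, among them autophagy, lipid synthesis and amino acid synthesis genes, had 9 of 19 higher and 10 lower, with a median of -0.039. ATF4, a transcription factor of amino acid synthesis genes, differed by -0.093 (SE 0.049). Its targets ASNS and PHGDH differed by -0.23 (SE 0.16) and 0.23 (SE 0.18). On slide 1 ASNS was at -0.041 and PHGDH at 6.7e-05. With 1 animal left out they went as low in size as -0.13 without unstable animal 4 (ASNS) and 0.12 without stable animal 2 (PHGDH). In both lists 0 genes passed limma's adjusted threshold and 0 had an unadjusted p under 0.05.

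**Figure D5:**
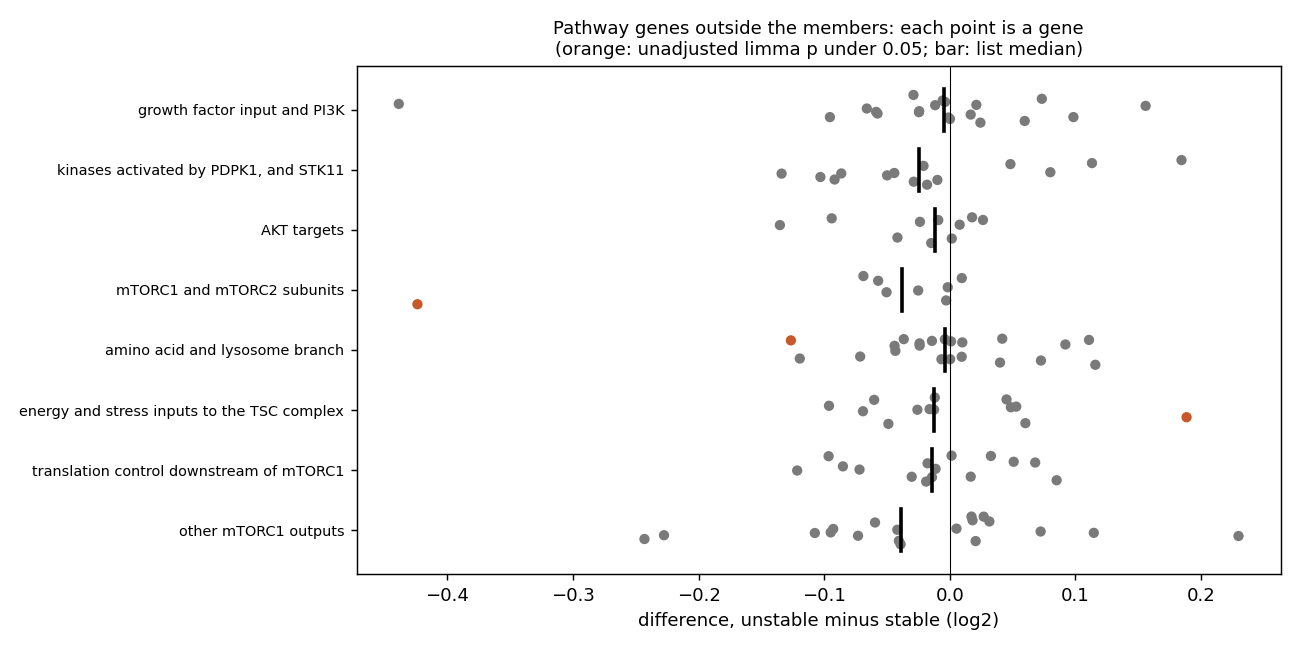
Difference between unstable and stable animals (horizontal axis, log2 units) for the 120 measured genes of the wider route, grouped by list, with 1 point per gene, the list median as a bar and genes at an unadjusted limma p under 0.05 in orange. List medians lie between -0.039 and -0.004, and 3 genes are orange: C8orf41, RRAGC and DDIT4L.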

How the data were processed

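Labelled cRNA from lymph nodes of 10 macaques was hybridised to Illumina HumanRef-8 v3.0 arrays. Their probes were designed on human sequence, so a macaque transcript that differs under a probe can give a lower signal, also between animals. The authors deposited probe intensity values (24526 probes, not normalized, no gene names or detection p-values). They also deposited log2 values for 18622 gene symbols, whose distributions are nearly the same across arrays. GenomeStudio is the tool in the submitters' processing notes, and the normalization method is not given in the sources used here. Gene rows were matched by value to quantile-normalized probes. In all 14750 rows equalled 1 probe within 0.002 log2 units, 6 members among them, and TSC2 equalled the mean of 2 probes within 0.008. PDPK1, TSC1 and AKT1 matched no probe or pair, so alternatives on probe values could not include them.

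The gene table was fitted whole with limma 3.58.1 in R 4.3.3 (lmFit, eBayes, two-sided, no covariates), Benjamini-Hochberg adjustment over all genes and a 0.05 threshold. Standard errors are from that fit. Replicates are separate animals, grouped by the labels. The labels do not say whether replicate numbers pair the animals, and the main fit did not treat them as pairs. The fit was tested on simulated data. Members, lists and pairs were chosen with earlier results of these data known. Named genes are all members, up to 3 genes of smallest p in each list of the wider route, and the 5 genes most like PDPK1 and TBC1D7. Other genes given by name are marker genes of the lists. Alternatives were probe values, normexp correction (offset 16) with quantile or median scaling, a filter on dim genes, slide, age label, replicate number, trend and robust eBayes, array weights, and arrays left out. Symbols are those of the gene table, and older ones are given their current names from general knowledge. Some genes of the lists are not reported here and were left out of the counts. Figures were drawn with matplotlib 3.10.9.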

Additional observations from a re-analysis of the deposited data

Results flagged for a closer look

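Of 68 groups of 5 values, for the 10 members and 24 named genes of the wider route, 5 held an animal whose gap to the nearest other animal was over 0.71 of the group's range, where chance gives about 1 in 20. Over all genes 6.12% of groups did. Among the members it was RHEB at 9.43 in unstable animal 5, where the other unstable animals stood at 7.97 to 8.17 and 2 stable animals were as high. C8orf41 stood at 8.34 in unstable animal 3, FLJ14213 at 6.64 in stable animal 5, LYK5 at 7.31 in unstable animal 4 and PRKAG1 at 7.58 in stable animal 4.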

How the results depend on the processing

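The difference ran from 0.135 to 0.177 for PDPK1 over 18 alternatives and from 0.195 to 0.33 for TBC1D7 over 21. PDPK1 matched no probe, so none of its alternatives changed the normalization, and the 2 ranges are not alike. Both genes were chosen from this contrast and their groups do not overlap, so their sign cannot change when animals are left out and is no sign of stability. TSC2, AKT2 and EIF4EBP1 were lower under all 20 of theirs, though mostly below background. The alternatives are not separate checks. The replicate block and the filter on dim genes leave each difference as it is, and slide as a fixed block gives the same differences as slide 1 alone. TSC1, RHEB, AKT1, FRAP1 and RPS6KB1 changed sign under some. The count of members higher in unstable animals was 4. It was 1 of 7 with matched probes and with normexp and quantile scaling, and 2 of 7 with normexp and median scaling, where PDPK1, TSC1 and AKT1 could not be included. Members with separate groups numbered 1 in each of those 3. On slide 1 they numbered 5, but there a gene is separate whenever the 1 stable animal is highest or lowest. The share over all genes was not taken on slide 1 or in those 3 settings, so these counts are not read as a result about the members. The median member difference was -0.10 with normexp and quantile scaling, -0.099 with normexp and median scaling and 0.033 over the 7 members above background on 3 or more arrays. with 1 animal left out it ran from -0.042 to 0.0094, and the number of higher members from 4 to 5. That of separate members was 2 each time, and could not have fallen. The wider route had 0 genes past the adjusted threshold under every alternative run (2 to 9 at an unadjusted limma p under 0.05), with 40 to 57 of 120 higher when 1 animal was left out. With normexp and median scaling 49 of 95 were higher, and 61 of 120 without stable animal 2 and unstable animal 4. Pairs past the threshold ran from 0 to 1 with 1 animal left out: without unstable animal 1, FRAP1 and RPS6KB1 had r = 0.853 (exact permutation, adjusted p = 0.0458). With the replicate block, which leaves the differences as they are, 0 genes of the wider route passed (smallest limma adjusted p = 0.946). Deviations of same-numbered animals correlated at -0.059 to 0.007, so no shared pattern was seen by number. This cannot show whether the design paired the animals. The numbers of arrays and the 4 members near background limit what could be detected.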
